A study of Mus musculus with 6 samples.

Results

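The cells described here are the C1q-positive macrophages of whole fetal mouse lungs at embryonic day 18.5 (E18.5), the cells usually called interstitial macrophages. A barcode was taken as a member if it had at least 700 detected genes and 0.5 to 10% mitochondrial RNA, at least 5 UMIs (unique molecular identifiers, each standing for 1 captured transcript) of C1qa, C1qb and C1qc together, at least 2 of Tyrobp and Fcer1g together, none of Pecam1, Cdh5 or Epcam, and no more than 2 of Col1a1, all counted after the study's SoupX correction for free RNA. The members were thus chosen by their measured C1q, Tyrobp, Fcer1g, Pecam1, Cdh5, Epcam and Col1a1 values, which serve below as description alone. The rule found 367 members among 16515 kept cells of both whole-lung libraries, in a series of 63659 barcodes. The study asked what the chemokine CXCL12 does in the growing lung vasculature, using a DsRed reporter knocked into Cxcl12. It holds 6 single-cell libraries, of which 4 hold sorted reporter-positive cells and 2 whole lungs. 1 whole-lung library is labelled as homozygous null (Cxcl12DsRed/DsRed) and the other as heterozygous control (Cxcl12DsRed/+), so that both carry the DsRed allele, which takes the place of Cxcl12 on at least 1 chromosome. By the study's text the whole-lung cells came from 2 control and 2 null embryonic lungs, and it does not say how these were divided into libraries. The labels do not tell apart cells of single embryos, and the sex of the embryos is not given in the sources used here. With 1 library per genotype there was no replicate check and no test between libraries, and the intervals given below are exact 95% intervals that cover counting error only.

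The targeted gene went against these labels. Over all barcodes Cxcl12 stood at 193.4 UMIs per 1000000 (CPM, interval 190.7 to 196.1) in the library labelled null and at 1.28 CPM (1.05 to 1.54) in the library labelled control. In the members the library labelled null held 24.4 CPM, with 40.8% of these 76 UMIs in 1 cell and 97.4% in 10 cells, against 196.9 CPM in the other kept cells. In the library labelled control the members held 0 of 3710465 UMIs, which allows up to 0.809 CPM by a floor of 3 counts (0.994 CPM by the exact interval). The libraries are therefore named by their labels throughout, and every direction below rests on labels that Cxcl12 contradicts. They also differed in sex: of the members, 68 of 175 in the library labelled null had Xist and no Y-linked UMI and 54 had the reverse, while 36 had both and 17 neither, whereas in the library labelled control none of 192 had Xist and 177 had a Y-linked UMI. Genotype and library cannot be told apart in this pair. Sex can be matched in part, by taking only members with a Y-linked and no Xist UMI (the Y-linked subset below). The 36 members with both show that the call is not clean. The subset kept 54 of 175 members of the library labelled null but 177 of 192 of the library labelled control. As no member of the latter had Xist, the call could remove barcodes of mixed sex only from the library labelled null. The members kept there also had a lower median depth. Genes at least 2-fold higher in the library labelled control rose from 61 to 205 in the subset. How far this uneven removal changed its values was not tested. No barcode of a member was found in the other whole-lung library.

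Tissue macrophages of the fetal lung derive from yolk sac and liver progenitors and lie in the mesenchyme, around airways and vessels, before the alveolar macrophages mature at birth. They engulf dying cells, recycle iron and lipid, and release chemokines and growth factors. C1qa, C1qb and C1qc encode the chains of C1q, the first component of the classical complement pathway, and are neighbours in the genome. On GRCm38 they lie on the minus strand of chromosome 4, C1qb at 136880129-136886187, C1qc at 136889804-136893065 and C1qa at 136895917-136898803.

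Upstream sequence is shown for a pair of the rule's C1q genes and for Pf4, the chemokine with the highest level in the profile below. Each is the 250 bases before the RefSeq start (GRCm38.p6, 5′ to 3′ on the gene's strand), and capitals mark GAGGAA, a core bound by PU.1 (Spi1, the master regulator of the myeloid lineage), or its reverse complement TTCCTC. C1qb lies at chr4:136886201-136886450 (minus), C1qc at chr4:136892915-136893164 (minus) and Pf4 at chr5:90772185-90772434 (plus). The gene positions above are from GENCODE, whose C1qc begins further upstream than the RefSeq start, so that part of the C1qc window lies inside the gene as placed there.
C1qb: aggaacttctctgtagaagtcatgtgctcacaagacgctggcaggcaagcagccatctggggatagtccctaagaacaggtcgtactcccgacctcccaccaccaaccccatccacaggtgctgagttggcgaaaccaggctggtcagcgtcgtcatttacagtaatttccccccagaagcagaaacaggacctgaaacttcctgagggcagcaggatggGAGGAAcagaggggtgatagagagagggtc
C1qc: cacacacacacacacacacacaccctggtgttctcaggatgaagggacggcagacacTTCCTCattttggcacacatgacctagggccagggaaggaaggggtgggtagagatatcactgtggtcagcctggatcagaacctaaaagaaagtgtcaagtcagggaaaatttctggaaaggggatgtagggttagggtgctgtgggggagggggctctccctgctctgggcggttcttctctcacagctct
Pf4: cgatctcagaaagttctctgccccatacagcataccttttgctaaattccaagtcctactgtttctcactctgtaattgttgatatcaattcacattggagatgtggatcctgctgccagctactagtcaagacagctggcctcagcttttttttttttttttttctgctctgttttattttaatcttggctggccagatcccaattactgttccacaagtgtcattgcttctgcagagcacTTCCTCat
The match ended 25 bases before the start in C1qb, 188 in C1qc and 3 in Pf4. Of the 20 leading genes of the profile, 15 had a promoter in the table, and 8 of these (53.3%) held GAGGAA on either strand in their 250 upstream bases, against 23.1% of the first listed promoters of 27025 genes. A match describes these letters and is not evidence of binding.

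The rule split the cells by corrected C1q, the quantity it was built on, and few cells lay just below its limit. Among cells meeting every other limit, 589 of 595 left out for C1q in the library labelled null and 541 of 542 in the library labelled control had a corrected C1q sum of 0. The lowest members had sums of 5.50, 6.36 and 7.33 in the library labelled null and 7.64, 14.4 and 16.5 in the library labelled control, and the highest cells outside had 3.82 and 2.24 respectively. A corrected sum of 5 to under 50 was found in 22 of 175 members of the library labelled null and in 13 of 192 of the library labelled control. The raw median per member was 183 C1q UMIs in the library labelled null and 164 in the library labelled control. The cells outside, termed C1q-low myeloid cells here, outnumbered the members in both libraries and serve below as the nearest comparison.

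**Figure D1:**
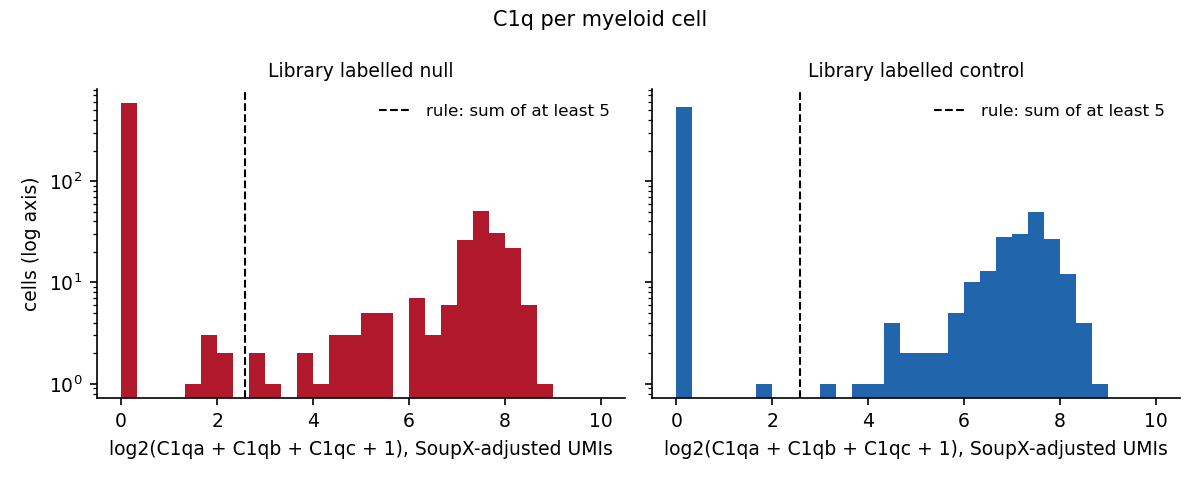
Histograms of the corrected C1q sum per myeloid cell on a log2 scale, with the number of cells on a log axis, for each whole-lung library. The dashed line is the limit of 5, and few cells lie near it: 6 cells in the library labelled null and 1 in the library labelled control lie above 0 and below it.

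Members formed 1.93% of kept cells in the library labelled null (175 of 9067, interval 1.66 to 2.24) and 2.58% in the library labelled control (192 of 7448, 2.23 to 2.96). This gap depended on the form of the rule. Before Col1a1 was applied, 229 cells (2.53%) and 198 cells (2.66%) remained, with wide overlap of the intervals (2.21 to 2.87 and 2.31 to 3.05). The limit then removed 54 cells from the library labelled null and 6 from the library labelled control, at a corrected Col1a1 of at least 2.87 and 2.83, with the highest members at 1.91 and 1.88. SoupX had taken away 18.1% of all UMIs in the first library and 39.7% in the second. The highest raw Col1a1 in a member was 14 UMIs in the library labelled null and 71 in the library labelled control. The removed cells had medians of 28 and 38.5 raw Col1a1 UMIs and held 623.2 and 596.8 CPM of Tcf21. Why the limit removed more cells from the library labelled null was not tested. Applied to raw counts, the whole rule kept 105 cells (1.15%, 0.940 to 1.39) and 117 cells (1.42%, 1.17 to 1.70). The rule as given, with doublet calls (Scrublet, described below) left out, kept 166 cells (1.95%, 1.67 to 2.27) and 141 cells (2.08%, 1.75 to 2.44).

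**Figure D2:**
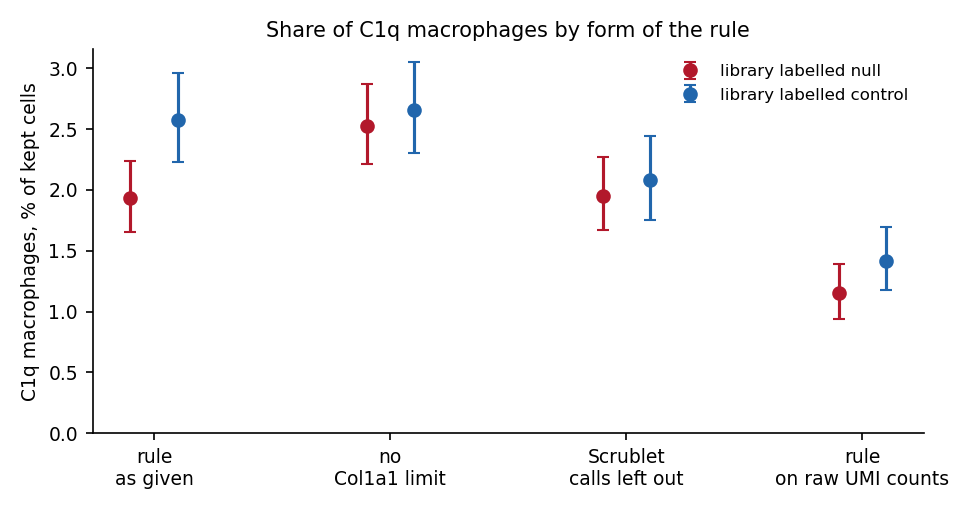
Share of C1q macrophages among kept cells (%) under 4 forms of the rule, as points with exact 95% binomial intervals, for each whole-lung library. The intervals of the libraries meet at 2.23 and 2.24% under the rule as given and overlap widely without the Col1a1 limit, at 2.53% and 2.66%. They also overlap widely with the limit kept and Scrublet doublet calls left out, at 1.95% and 2.08%.

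RNA of other cell types was unevenly spread over the members of these libraries. Tcf21, a transcription factor of lung fibroblasts, reached 5 UMIs in 1 of 175 members of the library labelled null and in 34 of 192 of the library labelled control. Mfap4, a fibroblast matrix gene, stood at 214.1 and 1195.5 CPM, and Sftpc, the surfactant gene of alveolar type II cells, at 44.2 and 864.3 CPM, with 58.5% of the latter UMIs in 1 cell. A doublet caller (Scrublet) marked 9 members (5.14%) in the library labelled null and 51 (26.6%) in the library labelled control, where it marked 6.19% and 8.83% of all kept cells. Haemoglobin transcripts (4 genes) reached 2562 and 556.0 CPM, of which a single cell held 99.2% and 99.0%. The endothelial list (7 genes, of which Pecam1 and Cdh5 were used by the rule) summed to 274.3 and 224.5 CPM. The part these mixed barcodes play in the gene differences below was not tested. Values with the rule applied to raw counts are given below for most of the lists and genes compared between libraries, since there Pecam1, Cdh5 and Epcam are at 0 and Col1a1 at no more than 2 raw UMIs. That set differed in its myeloid levels too: Ccr2 stood at 251.1 and 169.0 CPM in it, against 102.2 and 52.3 CPM under the rule as given, and Cd52 at 814.6 and 559.9 CPM against 443.5 and 232.9, both nearer to the C1q-low myeloid cells.

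Of 1320 genes at 100 CPM or more in the members of both libraries, 62 (4.7%) were at least 8-fold over all other kept cells in both. Because C1q chose the cells, this profile is a description and not a test. The other kept cells here and below include those removed by the Col1a1 limit, 54 in the library labelled null and 6 in the library labelled control. C1qa stood at 39.6 and 7.91 CPM in the other kept cells, and Pf4 at 55.7 and 12.6 CPM. Ccl12, a ligand of the monocyte receptor CCR2, led at 1039 CPM in the library labelled null and 845.4 CPM in the library labelled control, against 8.45 and 2.01 CPM in the other kept cells. It was uneven from cell to cell, with a lower quartile of 1.07 and a median of 4.50 per 10000 UMIs of a cell in the first library and 0.775 and 3.91 in the second. Its neighbours in the monocyte chemoattractant cluster of chromosome 11 were also among the leading genes, Ccl7 at 271.8 and 157.1 CPM and Ccl2 at 478.1 and 437.1 CPM. Ccl7 too was uneven: 89 of 175 and 74 of 192 members held it, and 10 cells held 41.5% and 48.9% of its UMIs. Pf4, the platelet factor 4 chemokine, had the highest level of the leading genes, at 3766 and 2595 CPM, and Ccl24, an eosinophil chemoattractant, stood at 370.8 and 445.2 CPM. All 5 of these chemokines lay at or below 26.1 CPM in the C1q-low myeloid cells of both libraries, whereas Ccl4, another leading gene, was found there at 106.8 and 104.9 CPM.

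Mrc1, the mannose receptor CD206, was at 871.4 and 729.3 CPM in members of the libraries labelled null and control, against 29.1 and 19.9 in the other kept cells. Cx3cr1, the fractalkine receptor, was at 841.2 and 770.5 CPM against 17.4 and 17.2, and the complement receptor gene C3ar1 at 240.4 and 266.3 against 5.95 and 6.92. The inhibitory Fc receptor Fcgr2b was at 433.9 and 351.7 CPM, the Fc receptor-like scavenger gene Fcrls at 529.4 and 373.3, and the lectin gene Clec10a at 242.3 and 183.5. Ms4a7, Ms4a6b, Aif1 (encoding IBA1), Gpr65, Fcna, Crybb1, Pla2g7 and Hpgds completed the 20, and 17 of the 20 genes were among the leading 20 when the rule was applied to raw counts. Of the Fcna UMIs, 10 cells held 58.3% and 63.0%, and the median member of either library held none.

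**Figure D3:**
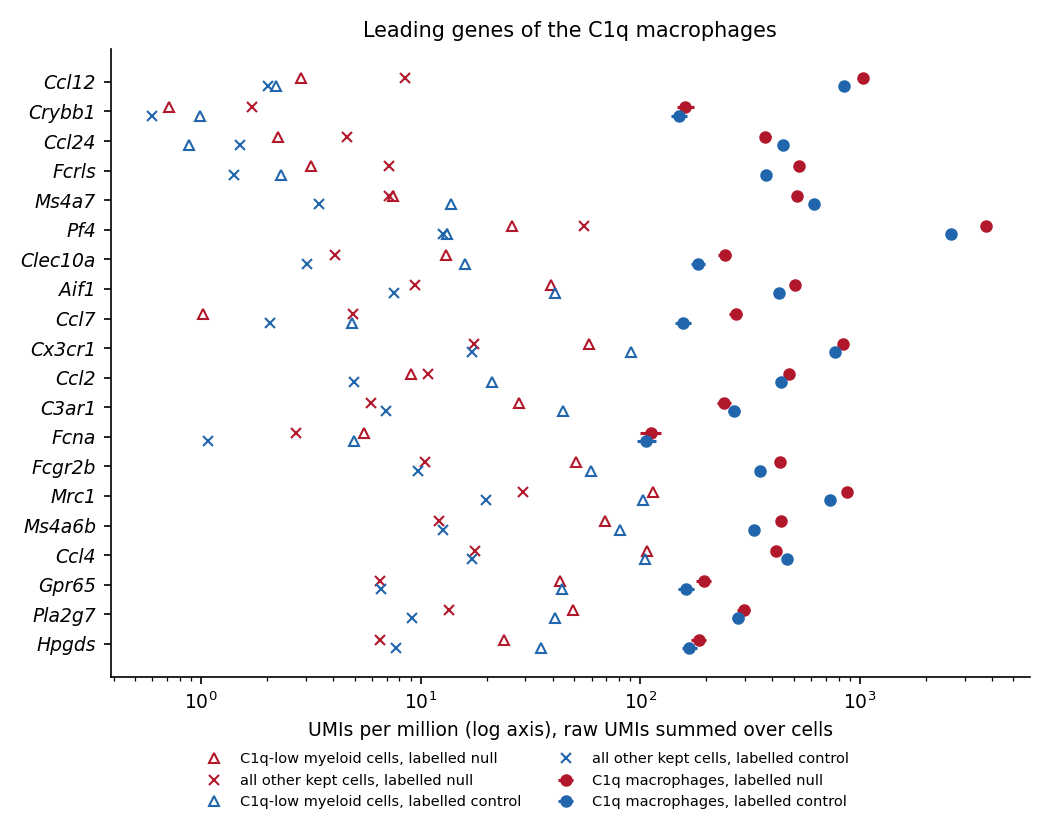
CPM on a log axis for the 20 leading genes, in C1q macrophages (filled circles, exact 95% Poisson intervals), C1q-low myeloid cells (triangles) and all other kept cells (crosses) of each whole-lung library. Every gene lies higher in the macrophages of both libraries than in either comparison, and Pf4 lies highest.

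The wider marker lists placed these cells among macrophages. All 15 genes of the core list were above 20 CPM, among them Csf1r (the receptor of the macrophage growth factor CSF1) at 816.6 and 747.3 CPM, Adgre1 (F4/80) at 259.6 and 215.3, and Maf at 1109.5 and 1070.2. Genes of mature alveolar macrophages were at or near 0: Fabp1, Krt79 and Cidec had no UMI in either library, Chil3 had 0 and 0.270 CPM and Siglecf 1.60 and 0.809 CPM. Alveolar macrophages mature at birth, so low values at E18.5 do not by themselves tell the members from precursors of those cells. The whole alveolar list of 12 genes summed to 57.4 and 90.0 CPM, below the other kept cells at 297.3 and 318.4. With the rule on raw counts some of these genes were higher, Chil3 at 35.5 CPM in the library labelled null, Ear2 at 113.9 and 95.4 CPM (19.6 and 29.4 under the rule as given) and Ear1 at 64.8 and 76.1 CPM (12.2 and 21.6). Dendritic cell and mast cell genes summed to at most 5.12 CPM, and 7 of 10 lymphoid genes, among them Cd3e, Cd3d and Nkg7, were at 0 in both libraries, with Il7r at 0.641 and 1.08 CPM. Cd79b, which encodes a B cell receptor chain, stood at 77.6 and 85.7 CPM, while Ms4a1 was at 0 and Cd79a at 0.641 and 0 CPM. Among microglial genes, Gpr34 (113.8 and 102.1 CPM), P2ry12 (59.6 and 41.2) and Tmem119 (58.7 and 51.5) were detected and Sall1 was not. Position in the tissue was not measured, and the term interstitial is that of the study's field and not a result of these data.

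Genes used to split adult interstitial macrophages differed widely in the share of members in which they were found. To compare cells of unequal depth, each was thinned to 2000 UMIs, which left out 1 member. A thinned cell can lack a gene that it held at full depth, so these shares also depend on level. F13a1, which encodes the A chain of clotting factor XIII, was then found in 84.5% of members of the library labelled null (interval 78.2 to 89.5) and in 81.8% of the library labelled control (75.6 to 87.0), Mrc1 in 75.3% and 70.8%, and Cx3cr1 in 73.0% and 72.4%. Pf4 was found in 82.2% and 82.8%. In the C1q-low myeloid cells F13a1 was found in 51.7% and 52.2%, Mrc1 in 18.9% and 16.4%, Cx3cr1 in 7.94% and 14.4% and Pf4 in 1.18% and 0.554%. The perivascular macrophage genes were found in fewer members: Lyve1, a hyaluronan receptor, in 13.8% and 15.6%, Cd163, the haptoglobin-haemoglobin receptor, in 12.1% and 13.02%, and Folr2, a folate receptor, in 5.75% and 9.38%. Lyve1 was also found in 11.3% and 11.0% of all other kept cells, which include lymphatic endothelium, but Folr2 and Cd163 in at most 0.158%. At full depth all 3 were found in more members: Lyve1 in 66 of 175 and 64 of 192, Folr2 in 46 and 62, and Cd163 in 61 and 77. There Cd163 was found in 56.1% and 68.8% of the members with Lyve1 against 22.0% and 25.8% of the members without Lyve1. Cells with more UMIs can hold more of both genes, and this share was not matched for depth.

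Of the antigen presentation genes, the classical MHC class II chains were low and Cd74 was not. Cd74, the invariant chain, was found in 31.6% and 34.4% of thinned members against 1.58% and 2.32% of all other kept cells, but H2-Aa, an MHC class II chain, only in 1.15% (2 of 174, interval 0.140 to 4.09) and 0.521% (1 of 192, 0.0132 to 2.87), against 0.215% and 0.304% in all other kept cells. In the C1q-low myeloid cells H2-Aa was found in 1.52% and 2.03% and Cd74 in 15.9% and 16.05%, with Cd74 at 344.9 and 321.1 CPM there and at 307.3 and 266.3 CPM in members. H2-Ab1 and H2-Eb1 lay at no more than 1.62 CPM in either library. At full depth Cd74 was found in 142 of 175 and 151 of 192 members, and H2-Aa in 6 and 2. Ccr2 was found in 9.77% and 4.69% of members, with overlapping intervals (5.80 to 15.2 and 2.17 to 8.71), against 63.7% and 60.5% of C1q-low myeloid cells. At full depth 38 of 175 and 35 of 192 members held it. Ear2, an eosinophil-associated ribonuclease that marks fetal monocytes and pre-alveolar macrophages, was found in 4.02% and 1.04% of members against 79.7% and 73.6% of C1q-low myeloid cells. Cxcr4, the signalling receptor of CXCL12, was found in 1.15% (2 of 174, interval 0.140 to 4.09) and 2.60% (5 of 192, 0.851 to 5.97) of members. The other kept cells stood at 4.67% and 3.44%, and the second interval includes 3.44%. At full depth Cxcr4 was found in 31 of 175 and 24 of 192 members. In the C1q-low myeloid cells Cxcr4 was found in 5.41% and 3.32%. Its level in members was 15.7 and 11.3 CPM, and Ackr3, the second CXCL12 receptor, stood at 3.205 and 9.43 CPM against 31.5 and 26.1 CPM in the other kept cells. Ackr3 was at 1.33 and 2.42 CPM in C1q-low myeloid cells. In members it was at 0 in SoupX values and at 1.37 and 0.62 CPM with the rule on raw counts. The study describes CXCR4 as broad among its immune cells and ACKR3 as restricted to macrophages.

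The members varied with Pf4, by which thinned cells were ordered and which was chosen for this after its values were seen. In the library labelled null the tercile of 58 members with most Pf4 had 1951 CPM of F13a1 and the tercile with least had 726.9 CPM, and in the library labelled control (64 members a tercile) these were 1510 and 673.0 CPM. Mrc1 (1304 against 471.6 CPM, and 1106 against 485.9), Fcrls (807.1 against 245.3, and 578.1 against 189.3) and Lyve1 (446.8 against 16.3, and 318.1 against 40.2) were higher at the Pf4-rich end in both libraries. Other genes were higher at the Pf4-poor end: Lyz2 (lysozyme, in the core macrophage list) at 6263 CPM against 1458 and at 5517 against 1178, Lgals3 (galectin 3) at 1029 against 77.2 and at 793.5 against 107.0, and Ccr2 at 263.4 against 1.03 and at 118.4 against 4.001. These genes were picked from no single list, and F13a1, which more than 50% of the C1q-low myeloid cells held, went the other way. Trem2, a lipid receptor, was nearly level along it, at 352.1 and 363.4 CPM in the library labelled null and 393.8 and 392.1 in the library labelled control, as was Apoe. Over the 174 and 192 thinned cells Spearman's rho with Pf4 was 0.54 and 0.44 for F13a1 and -0.46 and -0.39 for Lgals3. These are descriptions of cells that share a library, and the median depth was greater at the Pf4-poor end in both (17105.5 against 14268.5 UMIs, and 18025 against 13373.5).

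**Figure D4:**
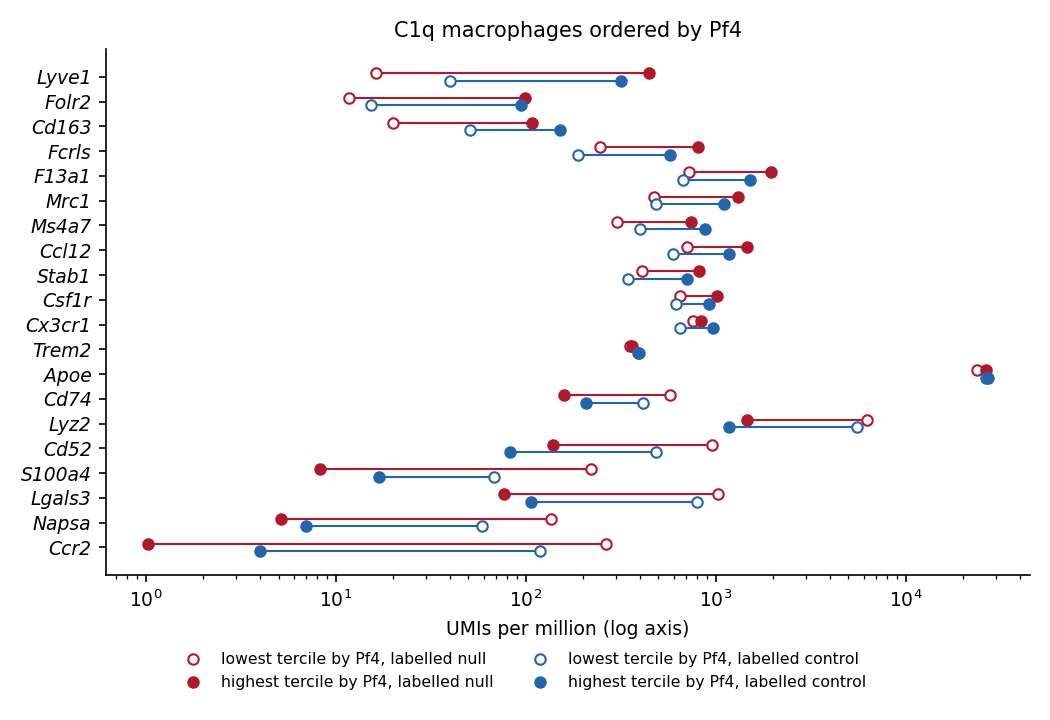
CPM on a log axis for 20 genes in the terciles of members with least (open circles) and most Pf4 (filled circles), for each whole-lung library. Lyve1, Folr2, Fcrls, F13a1 and Mrc1 lie higher with more Pf4, Ccr2, Lgals3, S100a4 and Lyz2 lie lower, and Trem2 and Apoe hardly differ.

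Cell cycle transcripts were found in few members at matched depth. At least 2 UMIs of 9 mitotic genes were present in 5.17% of thinned members of the library labelled null (9 of 174, interval 2.39 to 9.59) and in 5.21% of the library labelled control (10 of 192, 2.53 to 9.37). At full depth the shares were 35.4% and 36.5%. The other kept cells stood at 8.48% and 6.70% at matched depth, and the C1q-low myeloid cells at 22.3% and 7.93%. Levels were taken at full depth and are not the same measure as these shares. Log2 ratios (labelled null over labelled control) of the 9 genes ran from 0.84 to 1.55 in C1q-low myeloid cells and from -0.08 to 1.16 in members. Over the longer cell cycle list, which adds DNA replication genes, the 16 measured genes had a median log2 ratio of 0.79 in members. Top2a, a topoisomerase of dividing cells, was at 37.8 and 17.0 CPM, and at 31.4 and 9.975 CPM with the rule on raw counts. Mcm5, a replicative helicase subunit, was at 23.7 and 7.82 CPM, which became 9.55 and 10.6 CPM with the rule on raw counts. Of the UMIs of the 9 mitotic genes, however, 77.6% and 71.9% came from 10 cells, and the list's median was 0.19 with the rule applied to raw counts and -0.44 in the Y-linked subset.

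Between the libraries few genes of the members differed by 2-fold. The study reported significant changes in gene enrichment for interstitial and alveolar macrophages of these lungs. Its comparison was not repeated here, and a count of 2-fold differences does not measure the same thing. Of 3231 genes at 50 CPM or more in the members of at least 1 library, 16 (0.495%) were at least 2-fold higher in the library labelled null and 61 (1.89%) at least 2-fold higher in the library labelled control, around a median log2 ratio of -0.02. None of the 15 core genes and none of the 22 lysosomal genes passed this fold, although the Fc receptor gene Fcgr1 did so in the Y-linked subset (474.3 and 216.2 CPM, log2 ratio 1.13). Csf1r had a log2 ratio of 0.13 (interval 0.05 to 0.21), Mrc1 0.26 (0.18 to 0.33), Cx3cr1 0.13 (0.05 to 0.20) and Cd68 -0.09 (-0.21 to 0.03). The medians were 0.13 for the core list and 0.01 for the lysosome list, beside -0.06 over all 6484 genes at 20 CPM or more, of which 0.571% were 2-fold higher in the library labelled null and 2.47% in the library labelled control. These small directions turned with the form of the values: the core median was -0.26 when SoupX-corrected values were summed and -0.06 with the rule on raw counts, where the lysosome median was -0.14. Lists of Fc receptors (10 genes, median 0.25), chemokines (13, 0.13), iron and haem handling (12, 0.07), apoptotic cell uptake (11, -0.17), interferon response (9, -0.06), immediate early genes (17, -0.01) and NF-kappaB response (11, 0.01) held no gene past 2-fold. With the rule on raw counts these medians were 0.02, -0.02, -0.19, 0.0043, -0.37, 0.22 and 0.09 in the same order, and 1 chemokine gene, Ccl6, was then 2-fold higher in the library labelled control. In the Y-linked subset Ccl6 (-1.33), Fcgr1 and, of the NF-kappaB list, Tnfaip3 (1.32) and Icam1 (1.005) were past 2-fold.

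Most genes higher in the library labelled control were lower in members than in the rest of the lung. Of the 61, 55 lay below the level of all other kept cells of that library, led by Sftpc, Limch1 and Tcf21, and the mesenchymal list (7 measured genes, 1 of them Col1a1, which the rule used) had a median of -0.95. That median was 0.67, the opposite direction, without the Col1a1 limit, and the count of 61 fell to 14, with 22 on the other side. With the rule on raw counts 20 genes (0.68%) were past 2-fold on this side, 4 of them among the 61, and 8 (0.272%) on the other, 3 of them among the 16. The lipid handling list (11 genes) had a median of -0.42 and stayed negative under every alternative, from -0.64 to -0.26. Its members included Lpl, lipoprotein lipase, at 65.1 CPM in the library labelled null and 143.4 in the library labelled control (log2 ratio -1.13, interval -1.38 to -0.90), Fabp5, a fatty acid-binding protein, at 357.0 and 629.0 CPM (-0.82, -0.92 to -0.71), and the cholesterol exporter gene Abca1 at 215.7 and 283.0 CPM (-0.39), whereas Apoe was at 24618.7 and 25735.6 CPM (-0.06). Neither Lpl nor Fabp5 was particular to the members. Lpl was at 87.0 and 136.2 CPM in the other kept cells and at 392.1 and 586.0 in C1q-low myeloid cells. Fabp5 was at 407.4 and 623.2 CPM in the other kept cells. In members 10 cells held 53.7% and 52.6% of the Lpl UMIs and 55.1% and 47.6% of the Fabp5 UMIs. For Lpl and Fabp5 the other kept cells differed in the same direction, with log2 ratios of -0.64 and -0.61. Ccl6 (62.2 and 117.5 CPM, log2 ratio -0.91) did not share this, with 0.06 in the other kept cells, but 30.96% of its UMIs in the library labelled control came from 1 cell. Tpm3-rs7, a tropomyosin-like gene that may share reads with Tpm3, was lower in the library labelled null in members (-1.01), in C1q-low myeloid cells (-0.79) and in the other kept cells (-0.80). With the rule on raw counts the log2 ratio was -0.82 for Lpl, -1.23 for Fabp5, -0.33 for Abca1, -0.25 for Apoe, -1.51 for Ccl6 and -1.17 for Tpm3-rs7, and in the Y-linked subset Abca1 stood at -0.05 and Apoe at 0.19.

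Of the 16 genes higher in the library labelled null, 9 lay below the level of all other kept cells of that library, among them Xist and the airway genes Scgb1a1 and Scgb3a2, and 3 of the other 7 were haemoglobin genes. By the rule for named genes, Hist1h2ap and Pclaf, expressed in S phase, came first at 63.5 against 7.01 CPM and 60.9 against 9.97 CPM, but 94.95% and 93.2% of their UMIs in the library labelled null came from 10 cells, and Hist1h2ap turned to -0.39 with the rule on raw counts. Il1b, the interleukin 1 beta gene, was at 65.4 and 23.2 CPM (log2 ratio 1.48, interval 1.13 to 1.88) in 34 of 175 and 25 of 192 members. Gdf15, a stress-induced cytokine gene, was at 67.0 and 29.9 CPM (1.15, 0.82 to 1.51). In the library labelled null 10 cells held 76.5% of the Il1b and 75.6% of the Gdf15 UMIs. Ccr2 (102.2 and 52.3 CPM, 0.96), Cd52 (443.5 and 232.9, 0.93) and Osm, oncostatin M (93.3 and 52.8, 0.81), fell short of 2-fold. All 3 are genes of the C1q-low myeloid cells, where Ccr2 was at 584.4 and 507.4 CPM. Il1b too was found in the C1q-low myeloid cells, at 67.8 and 80.7 CPM, with a log2 ratio of -0.25 between the libraries. The monocyte list (7 measured genes) had a median of 0.96, with Plac8, Hp and S100a4 2-fold higher in the library labelled null and Fn1 2-fold higher in the library labelled control. Hp turned from 2.13 to -0.24 with the rule on raw counts and S100a4 from 1.29 to -0.48 in the Y-linked subset, 10 cells held 88.4% of the S100a4 UMIs of the library labelled null, and Fn1 went from -2.67 to -0.13 on raw counts. Ccr2 was higher at the Pf4-poor end of the ordering above. Sh3bgrl3, a small SH3-domain protein gene, was the most evenly spread of these differences, at 593.5 and 316.9 CPM (0.90, 0.80 to 1.01) in 175 of 175 and 191 of 192 members. It was also higher in the C1q-low myeloid cells of the library labelled null (log2 ratio 0.64) and in the other kept cells (0.33). With the rule on raw counts the log2 ratio was 1.54 for Il1b, 1.95 for Gdf15, 0.57 for Ccr2, 0.54 for Cd52, 1.09 for Osm, 0.73 for Sh3bgrl3, 0.65 for Pclaf and 3.59 for Plac8. Without the Col1a1 limit it was 1.17 for Il1b, 0.60 for Gdf15, 0.43 for Ccr2, 0.47 for Cd52, 0.45 for Osm and 0.66 for Sh3bgrl3, and without Scrublet calls 0.84 for Gdf15 and 0.50 for Osm, so that Gdf15 lost its 2-fold difference under both and, at 0.84, with SoupX values. In the Y-linked subset it was 2.05 for Il1b, 1.95 for Gdf15, 0.95 for Cd52, 1.30 for Osm and 1.02 for Sh3bgrl3. The remaining named genes, Mxd1, Dock10, Nans and Dusp2 on this side and Robo2, Gm26825, Lamtor3, Pdgfra, Enpp2, Tbx5, Ecm1 and Pik3r1 on the other, had log2 ratios from 0.73 to 0.95 and from -1.04 to -0.75. With the rule on raw counts Nans stood at 0.013, Dusp2 at 0.13 and Pik3r1 at 0.035, Robo2 stood at -0.33 without Scrublet calls and Tbx5 at -0.18 without the Col1a1 limit. In the library labelled control several of these genes barely exceeded the other kept cells. Pdgfra, of the mesenchymal list, was at 334.5 CPM in members against 331.4, Robo2 at 66.6 against 65.8 and Enpp2 at 350.1 against 319.4. Ecm1 stood further apart, at 65.2 against 36.5 CPM. The median member of either library held no UMI of Pdgfra, Enpp2, Tbx5 or Robo2.

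**Figure D5:**
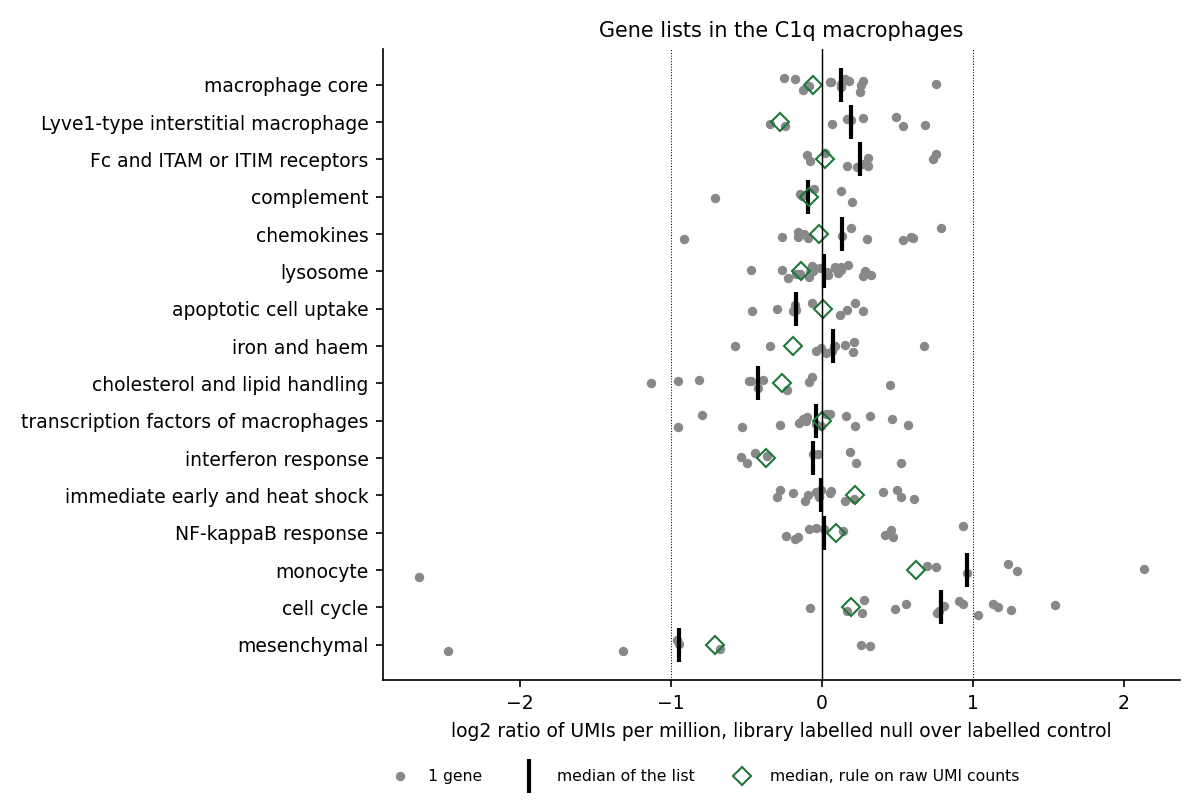
Log2 ratios (library labelled null over labelled control) of genes at 20 CPM or more in 16 lists, with 1 grey point a gene, a black bar at the list's median and a green diamond at the median with the rule on raw UMI counts. Most lists centre near 0, the cell cycle median falls from 0.79 to 0.19 on raw counts, and the monocyte (0.96) and mesenchymal (-0.95) medians stand apart.

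Outside the whole lungs the same rule on raw counts found 1 cell in each of the sorted E13.5, E15.5 and E18.5 libraries and none in the sorted P8 library. By the study's text the sort at every age removed CD45+ cells and kept CD31+ (PECAM1+) cells, whereas the rule asks for no Pecam1. The C1q limit and the Tyrobp and Fcer1g limit were together passed by 1, 4, 3 and 1 cells in order of age.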

How the data were processed

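Whole E18.5 lungs were dissociated and sequenced as 3′ v3 droplet libraries. Per the labels, the authors aligned reads to mm10 with Cell Ranger 3.1 and used Seurat 3.2.2. They deposited raw UMI counts and, for the whole lungs, expected counts adjusted with SoupX, which the authors estimated from a gene list that includes Lyz2, Fos and the haemoglobin genes. Those SoupX counts, which need not be whole, chose the members. All levels are raw UMI counts summed over cells, per 1000000 UMIs (CPM) with no length scaling. Gm42418, absent from the SoupX rows, was left out (0.485% and 0.381% of UMIs).

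Total UMIs were 103857395 in the library labelled null and 85648519 in the library labelled control, and members had medians of 15917 and 16673.5 UMIs. Ratios used a pseudocount of 0.5 CPM. Intervals were exact (Poisson, Clopper-Pearson, conditional binomial) and cover counting error only. Shares were taken after thinning each cell to 2000 UMIs. Doublets were called with Scrublet (scanpy 1.11.5, expected rate 8%) and kept, with their removal as an alternative. Both libraries shared 140 barcodes, none of a member. Python 3.11.15, numpy 2.4.6, scipy 1.17.1 and pandas 2.3.3 were used, and the scripts were tested on simulated data.

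The members and 33 gene lists were chosen with earlier results of these data known. Named profile genes were the 20 with the largest ratio over other kept cells, taking the smaller of both libraries, at 100 CPM or more, without genes of the rule. Named genes between libraries were on each side, the 12 most different at 50 CPM or more, moving the same way by at least 1.5-fold in SoupX values, and at or above the other kept cells where higher, without haemoglobin, mitochondrial, ribosomal and sex-linked genes. Upstream bases came from RefSeq and gene positions from GENCODE.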

Additional observations from a re-analysis of the deposited data

How the results depend on the processing

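No paired analysis was possible because each genotype had 1 library, and no library could be left out for the same reason. The numbers of genes higher in the library labelled null and in the library labelled control (16 and 61) were 8 and 20 with the rule on raw counts, 7 and 15 without Scrublet calls, 37 and 160 at a minimum of 20 CPM, 6 and 28 at 100 CPM, 548 and 1341 with no minimum, 53 and 173 at 1.5-fold, and 41 and 205 among members with a Y-linked and no Xist UMI. SoupX values gave 78 and 58, a Col1a1 of 0 gave 17 and 108, and no Col1a1 limit gave 22 and 14. The larger count was thus on the side of the library labelled null with SoupX values and with no Col1a1 limit. The share of kept cells was 1.15% and 1.42% with the rule on raw counts, 2.08% in the library labelled control without Scrublet calls and 2.53% in the library labelled null with no Col1a1 limit. Unthinned, the cycling shares were 35.4% and 36.5%.

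The core macrophage median was -0.062 with the rule on raw counts, -0.11 without Scrublet calls, -0.26 with SoupX values, 0.0385 as a mean over cells, 0.19 centred on the median, -0.12 with no Col1a1 limit and 0.38 in the Y-linked subset. The cell cycle median was 0.19 with the rule on raw counts, 1.65 with SoupX values, 0.36 as a mean over cells, -0.13 without cycling cells and -0.44 in the Y-linked subset. The mesenchymal median was -1.42 at a Col1a1 of 0, 0.67 with no limit and -1.79 in the Y-linked subset, and the monocyte median was 0.52 with no lower mitochondrial limit and 0.62 with the rule on raw counts. Hist1h2ap turned to -0.39 with the rule on raw counts and -0.41 without cycling cells, and the median log2 ratio of the erythroid list (2.18) to -4.77 at a Col1a1 of 0, -4.97 without cycling cells and -3.46 in the Y-linked subset. The other 118 values of these main results moved by less than their interval, as did 1009 values of single genes and other lists, while 267 of the latter moved by more. The causes were not tested. The missing Col1a1 limit and the Y-linked subset were chosen after seeing the data.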

Other observations

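Summed levels of gene lists in the C1q macrophages are given here for the libraries labelled null and control. The lysosome list (22 genes) summed to 14265.0 and 13859.4 CPM against 4699.3 and 5245.2 in the other kept cells, and the iron and haem list (14 genes) to 20115.2 and 19436.9 CPM against 6070.7 and 7036.4. Immediate early and heat shock genes (19), which respond to tissue dissociation, summed to 15559.4 and 15097.0 CPM against 10306.3 and 10115.3.

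Chemokine genes (15) summed to 8637.6 and 6856.0 CPM against 268.4 and 220.4 in the other kept cells. Glucocorticoid response genes (10) summed to 672.3 and 804.8 CPM with a median log2 ratio of -0.36, which was -0.08 with the rule on raw counts. The single member found in the sorted E18.5 library had 3117.9 CPM of Pf4, 831.4 of Cx3cr1 and 692.9 of Mrc1 among 14433 UMIs, and 1 cell allows no comparison.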
